A study of Mus musculus with 4 samples.

Results

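Amino acids cross cell membranes through families of carrier proteins, and 50 of the 24873 genes with deposited values were chosen as members of the families described here. They are genes with mouse symbols in the solute carrier families SLC1, SLC3, SLC6, SLC7, SLC36, SLC38 and SLC43. They were chosen by symbol and by no threshold on their values, but with earlier results of these data known. 55 symbols matched, and Slc1a2, Slc1a3, Slc7a5, Slc38a4 and Slc38a5 were left out beforehand. Of the 50 left, 49 are described. Slc6a18, Slc7a12, Slc7a13, Slc7a15 and Slc36a3, which belong to the same families, were not analysed here. Of the 49 genes, 44 had a mean of at least 10 normalized counts over the libraries and were tested, and 5 did not. A gene is called higher or lower here where the adjusted p of limma with Benjamini-Hochberg (BH) adjustment over all 20485 genes tested was under 0.05 and the log2 fold change exceeded 1 in size.

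RNA-Seq was performed on brain cells of adult mice that carried a tamoxifen-activated Cre recombinase driven by the VE-cadherin (Cdh5) promoter and 2 floxed copies of Mgp, matrix Gla protein, an inhibitor of bone morphogenetic proteins. The labels give a Cdh5 Cre and 2 floxed copies of Mgp for all 4 libraries, so the control mice carried the same alleles. That tamoxifen activates the Cre comes from the study's text, and the methods name littermates as controls. The promoter directs recombination to cells that express VE-cadherin. Tamoxifen was given from 10 weeks of age on 5 days at a daily dose of 75 mg/kg, the control group received none, and cells were collected on day 9. With this design the effect of tamoxifen itself and that of the deletion cannot be told apart. The study's text describes the sorted cells as CD31+CD45-, whereas the labels describe them as positive for a tdTomato reporter. Each library came from cells pooled from 3 mice, with 2 libraries in each group. The libraries held between 35387438 and 49799321 reads on genes, and 3 reads, the most that a count of 0 allows, came to between 2.16 and 4.11 normalized counts. At this group size the smallest p of an exact permutation test (two-sided) of 1 gene is 0.333, and the adjusted p-values draw on a spread that limma estimates over all genes. Mgp, the floxed gene, had normalized counts of 1094 and 1352 in control libraries 1 and 2 and of 945 and 909 in tamoxifen libraries 1 and 2 (log2 fold change -0.39, SE 0.18, adjusted p = 0.0986).

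The brain endothelium forms the blood-brain barrier, and its carriers decide which amino acids enter and leave the brain. Large neutral amino acids are exchanged by heteromeric carriers, in which a light chain of SLC7 does the transport and a heavy chain of SLC3 brings it to the membrane, while cationic amino acids, taurine, glutamate and glutamine have carriers of their own. Astrocytes and neurons use other members of the same families to clear GABA, glycine and glutamate after release and to exchange cystine and D-serine.

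Promoter sequence was at hand for 36 of the 49 genes, in 54 windows that each hold the 250 bases before an annotated start (RefSeq, GRCm38.p6). The letters TGATGNAA, the core of the amino acid response element that ATF4 and its partners bind, were searched on both strands. They occurred in 3.45% of all 32851 windows and in 3 of the 54 windows of these genes, which belong to Slc7a11 and Slc7a7. The windows of both genes are shown because they are the only ones here with these letters, and both genes were called higher in the tamoxifen libraries. Capitals mark the matches, the sequences run 5′ to 3′ on the strand of the gene, and the 2 windows of Slc7a7 belong to different starts and share 8 bases.
Slc7a11, chr3:50443614-50443863, minus strand: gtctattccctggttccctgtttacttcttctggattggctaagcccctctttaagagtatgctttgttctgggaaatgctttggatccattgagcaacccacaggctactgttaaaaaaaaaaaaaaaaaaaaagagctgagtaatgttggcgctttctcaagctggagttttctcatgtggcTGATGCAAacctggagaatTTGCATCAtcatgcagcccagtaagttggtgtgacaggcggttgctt
Slc7a7, chr14:54417945-54418194, minus strand: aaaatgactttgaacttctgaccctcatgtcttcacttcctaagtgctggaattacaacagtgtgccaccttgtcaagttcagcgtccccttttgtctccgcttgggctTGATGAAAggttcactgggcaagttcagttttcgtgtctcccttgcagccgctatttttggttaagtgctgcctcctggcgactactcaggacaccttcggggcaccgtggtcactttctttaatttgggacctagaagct
Slc7a7, chr14:54417703-54417952, minus strand: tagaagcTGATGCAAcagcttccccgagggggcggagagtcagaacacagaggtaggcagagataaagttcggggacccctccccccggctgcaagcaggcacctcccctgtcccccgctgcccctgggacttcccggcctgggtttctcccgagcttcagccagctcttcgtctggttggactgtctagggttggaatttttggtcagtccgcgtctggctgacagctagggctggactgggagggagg
In Slc7a11 the matches began at positions -66 and -47 from the start, the second on the opposite strand. A match describes letters only and is no evidence of a site. 9 other motifs were looked through on both strands in the same windows. TGACNNNGC, an antioxidant response element, was in 9 of the 54 windows, from 8 genes, and in 10.2% of all windows. CACGTG, an E-box, was in 8 windows and in 6.02% of all, and TCACGTGAC, a CLEAR element that contains it, was in none and in 0.621% of all. TATAAA was in 3 windows (12.4% of all), ATTGTT, a SOX element, in 2 (9.42%), and CCGGAAGT, an ETS element, in none (2.88%). A second ETS element, CAGGAAGT, the cAMP response element TGACGTCA and the forkhead element GTAAACA were in 1 window each, against 2.69%, 1.55% and 3.17% of all windows.

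Most of the carriers differed between the groups, and in both directions. Of the 44 tested, 23 were called higher in the tamoxifen libraries and 10 lower, which is 75% of them, whereas 44.7% of all genes tested were called, 28.6% higher and 16% lower. Genes near 0 in the controls were tested only where their tamoxifen counts carried them past the filter, which favours calls of higher in both counts. In RNA from many cells, fewer cells of a type and less RNA per cell cannot be told apart, here and in each result that follows. Slc43a3 was higher and Slc38a2, Slc38a9 and Slc43a2 were lower by adjusted p alone, with a log2 fold change under 1 in size, and 7 genes passed neither threshold. Both tamoxifen libraries lay above both control libraries for 26 of the 44 and below them for 14, against 43.1% and 39.2% of all genes tested (82.3% in either direction). Log2 fold changes ran from -3.57 for Slc1a1 to 6.12 for Slc6a16 with a median of 1.48, whereas the median over all genes tested was 0.051. That median depended on which genes passed the filter. When tamoxifen library 1 was left out it was 0.85 over 41 carriers, which had a median of 0.69 with all libraries, and Slc6a2, Slc6a7 and Slc38a8 were no longer tested. When tamoxifen library 2 was left out it was 0.89 over 43 carriers, and over the 42 tested both ways it was 1.08 against 0.96 with all libraries. Without that library 15 carriers were called higher, and Slc6a5 and Slc6a19 were no longer tested. Rescaling each library to the same total moved the median of all genes to 0.54 and left 24 carriers called higher and 6 lower, and quantile normalization moved it to -0.23 and left 18 higher and 9 lower. No called carrier changed sign under any of the 15 alternatives tried.

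**Figure D1:**
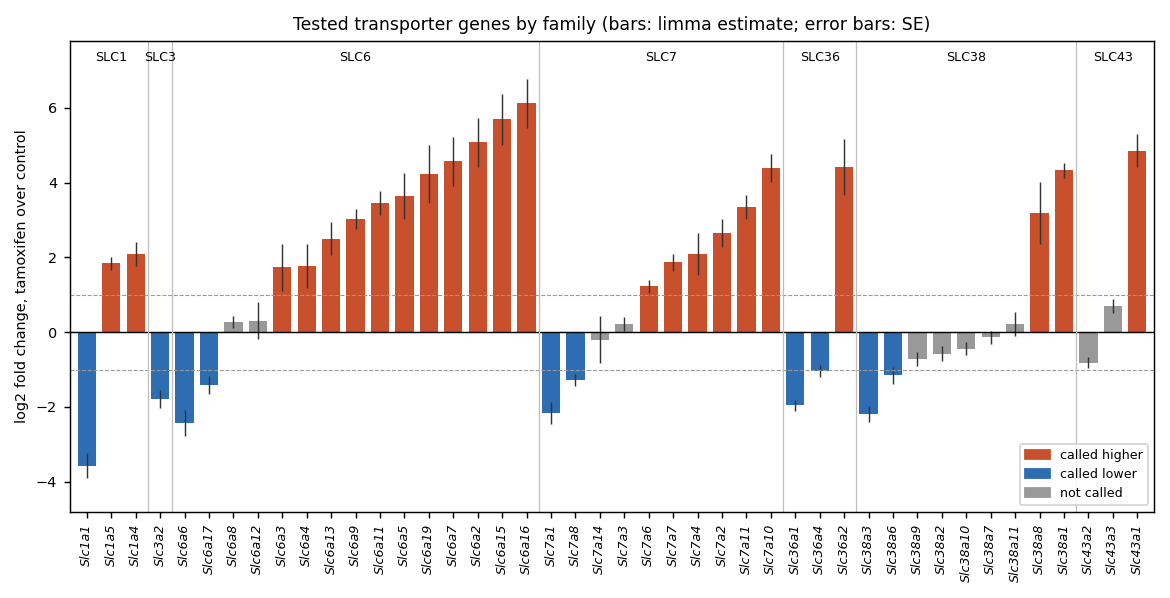
Each bar is the log2 fold change of 1 tested gene, tamoxifen over control, from limma on 2 libraries against 2, with its SE as an error bar, grouped by family and coloured by the call, and dashed lines mark a log2 fold change of 1. In SLC6, 11 of 15 bars are called higher and 2 lower, whereas SLC38 holds 2 called higher and 2 called lower of 9.

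The direction varied with the level in the control cells. Of the 9 carriers with a control mean of at least 5000 normalized counts, 6 were called lower (Slc1a1, Slc3a2, Slc6a6, Slc7a1, Slc36a1 and Slc38a3) and none higher, whereas 45.1% of all genes at that level were called lower and 2.8% higher. At a control mean from 100 to 5000, 10 of 20 carriers were called higher and 4 lower, against 17.4% and 15.8% of all genes at that level. Below 100, 13 of 15 were called higher and none lower, against 48.9% and 8.36%. Slc6a2, Slc6a3, Slc6a5, Slc6a7, Slc6a15, Slc6a16, Slc6a19, Slc36a2 and Slc38a8 had control means under 10 normalized counts. They passed the filter only through their tamoxifen counts, and all were called higher. The same filter bears on the shares of all genes below 100. The level was also read from the same control libraries as the difference, so these shares are a description.

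**Figure D2:**
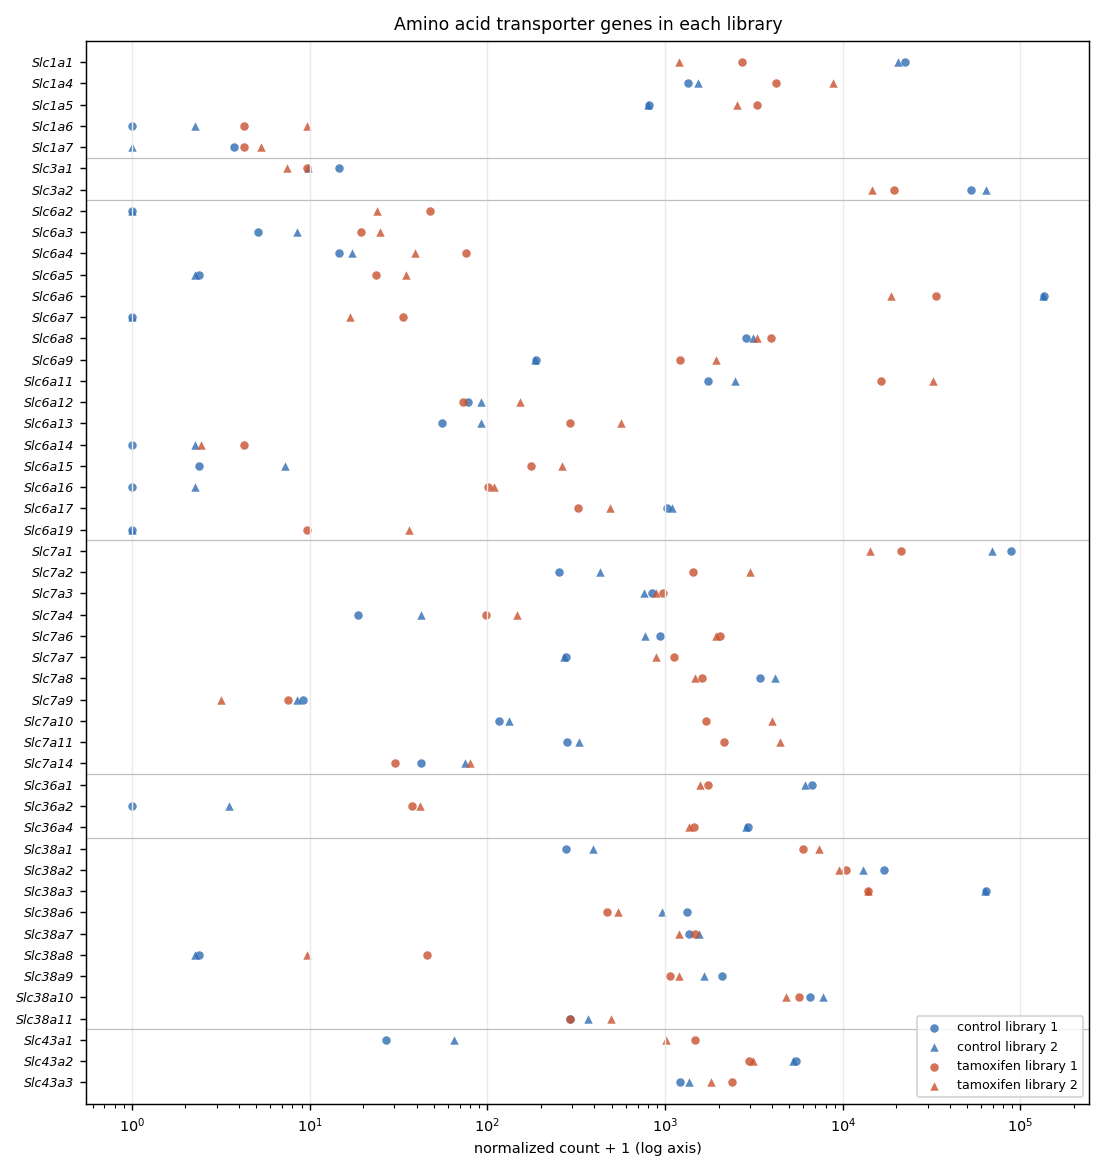
Each row is 1 gene and each point its normalized count plus 1 in 1 library on a log axis, with control libraries in blue, tamoxifen libraries in orange, circles for library 1 and triangles for library 2. The blue points of the genes with the highest control counts, such as Slc6a6 at 135358 and 134748, lie to the right of the orange ones, and most genes with blue points under 100 have orange points to their right.

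The libraries also differed in markers of cell types. All 10 endothelial markers were called lower (median log2 fold change -2.88), and their summed normalized counts lay between 795108 and 813490.3 in the control libraries and between 78527 and 147859.9 in the tamoxifen libraries. The 8 astrocyte markers were all called higher, with sums between 13921 and 16385 in the controls and between 48279.8 and 87371 in the tamoxifen libraries. Of 8 neuron markers 6 were called higher, with sums of 1311 to 1701 and 11212 to 20218, and of 6 oligodendrocyte precursor markers 5 were, with sums of 3371 to 5804 and 22542 to 50649. Every tested marker of fibroblasts (6), neutrophils (7), lymphocytes (5), erythroid cells (7), pluripotency (7) and the cell cycle (7) was called higher, as were 6 of 7 of oligodendrocytes, 4 of 7 of microglia and macrophages, 4 of 6 of choroid plexus and ependyma and 1 of 7 of pericytes and smooth muscle, and none of these lists held a marker called lower. Of all genes tested, 28.6% were called higher and 16% lower, and of those with a control mean under 100, 48.9% and 8.36%. No listed marker was at 0 in both libraries of a group. The part of these markers in the carriers' differences was not tested.

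Among the tested members of SLC1 the glutamate carrier Slc1a1 fell, whereas the neutral amino acid carriers Slc1a4 and Slc1a5 rose. Slc1a2 and Slc1a3, genes of the same family that are no members of the set, were called higher (log2 fold changes of 2.87 and 3.73). The members are therefore no account of the whole family. Slc1a1, which takes up glutamate, aspartate and cysteine (chromosome 19 from 28812449 to 28891360 of GRCm39), had normalized counts of 22386 and 20585 in the controls and of 2699 and 1203 in the tamoxifen libraries. Both tamoxifen libraries were far below both control libraries, and the fall, by 3.57 on the log2 scale (SE 0.33, limma with BH adjustment, adjusted p = 0.000106), was the largest among the tested carriers. Slc1a4, an exchanger of alanine, serine and cysteine (chromosome 11 from 20252180 to 20282774), rose from 1339.6 and 1541 to 4235 and 8836 (log2 fold change 2.09, SE 0.31, adjusted p = 0.000840). The tamoxifen libraries of this gene differed by 2.09-fold, although neither overlapped the controls. Slc1a5, the glutamine exchanger (chromosome 7 from 16515265 to 16532731), stood at 814 and 799 in the control libraries and at 3291 and 2551 in the tamoxifen libraries (log2 fold change 1.84, SE 0.18, adjusted p = 0.000121). Here the order of the tamoxifen libraries was the reverse, with library 1 the higher.

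The heavy chain of the heteromeric carriers and most of the tested light chains among the members moved in opposite directions. Slc7a5, the most abundant light chain and no member of the set, fell like the heavy chain (log2 fold change -2.71). Slc3a2, the heavy chain CD98 (chromosome 19 from 8684245 to 8701108), had normalized counts of 52511 and 64209 in the controls and of 19482 and 14538 in the tamoxifen libraries. It was lower in both tamoxifen libraries (log2 fold change -1.79, SE 0.25, limma with BH adjustment, adjusted p = 0.000654), but under quantile normalization its log2 fold change of -0.94 missed the size threshold. Of the 5 light chains tested among the members, 4 were called higher and Slc7a8 lower. Slc7a8, an exchanger of neutral amino acids large and small (chromosome 14 from 54959630 to 55019649), went from 3402 and 4145 to 1606 and 1478 (log2 fold change -1.28, SE 0.17, adjusted p = 0.000409), and with libraries rescaled to the same total the change of -0.81 missed the size threshold.

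Slc7a10 and Slc7a11 showed the largest rises among the light chains tested. Slc7a10, which exchanges small neutral amino acids and D-serine and is known from neurons and astrocytes (chromosome 7 from 34885666 to 34906995), rose from 115 and 131 normalized counts to 1693 and 3973 (log2 fold change 4.39, SE 0.37, limma with BH adjustment, adjusted p = 7.53e-05). Its value was 3.77 without tamoxifen library 2 and 5.003 without tamoxifen library 1. Slc7a11, which imports cystine in exchange for glutamate (chromosome 3 from 49846975 to 50398070), rose from 281 and 327 to 2157 and 4418 (log2 fold change 3.35, SE 0.32, adjusted p = 0.000111). In both genes tamoxifen library 2 held more than 2 times the level of library 1. The exchangers of cationic for neutral amino acids rose less. Slc7a7 (chromosome 14 from 54606895 to 54655603), the other gene with response element letters in the windows above, had 275 and 270.3 in the controls against 1127 and 889 (log2 fold change 1.87, SE 0.22, adjusted p = 0.000274). Slc7a6 (chromosome 8 from 106895139 to 106925346) had 937 and 768 in the controls against 2049 and 1927 (log2 fold change 1.23, SE 0.17, adjusted p = 0.000663). The tamoxifen libraries of Slc7a6 and Slc7a7 differed by less than 1.5 times and lay above both controls.

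Levels of different genes can be set side by side per kilobase of exon. On that scale Slc7a5, the light chain that carries large neutral amino acids at the blood-brain barrier and is no member of the set, made up 99.0% of the sum of 6 light chains in each control library, 92.9% in tamoxifen library 1 and 83.7% in tamoxifen library 2. Its log2 fold change was -2.71 (SE 0.41, adjusted p = 0.000883). The sum of the 6 light chains per kilobase was 5.25 and 4.58 times the level of Slc3a2 in the control libraries and 3.32 and 2.54 times in the tamoxifen libraries. The share of Slc7a10 in that sum was 0.0197% and 0.0211% in the controls and 1.24% and 5.08% in the tamoxifen libraries, and that of Slc7a11 went from 0.0306% and 0.0334% to 1.00% and 3.60%. Slc7a6 went from 0.244% and 0.187% to 2.27% and 3.74%, Slc7a7 from 0.0767% and 0.0707% to 1.34% and 1.85%, and Slc7a8, although lower in level, from 0.623% and 0.712% to 1.25% and 2.02%. The share of every light chain other than Slc7a5 was higher in both tamoxifen libraries than in both controls, and since shares sum to 100%, a smaller share of Slc7a5 leaves a larger one for the rest.

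**Figure D3:**
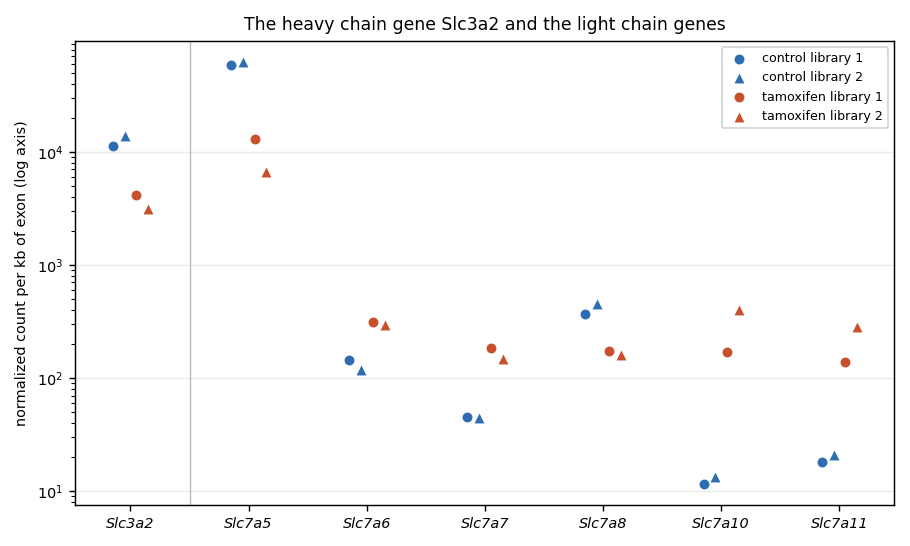
Points give normalized counts per kilobase of exon on a log axis for the heavy chain gene Slc3a2, left of the line, and 6 light chain genes in each of the 4 libraries (blue, control, and orange, tamoxifen). Slc3a2, Slc7a5 and Slc7a8 lie lower in the tamoxifen libraries, whereas Slc7a6, Slc7a7, Slc7a10 and Slc7a11 lie higher, with Slc7a10 at 12.5 in the controls and 286 in the tamoxifen libraries on average.

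Among the cationic amino acid carriers, the abundant one fell and 2 less abundant ones rose. Slc7a1, which brings arginine, lysine and ornithine into most cells (chromosome 5 from 148264220 to 148336848), had normalized counts of 88381 and 69405 in the controls and of 21397 and 14202 in the tamoxifen libraries (log2 fold change -2.17, SE 0.29, limma with BH adjustment, adjusted p = 0.000484). Slc7a2, a carrier of the same substrates (chromosome 8 from 41315431 to 41375345), rose from 251 and 429 to 1427 and 2993 (log2 fold change 2.65, SE 0.38, adjusted p = 0.000688). The groups did not overlap in either gene, and even after the change Slc7a1 stood above Slc7a2 per kilobase of exon, at 1510.5 against 218 normalized counts. The remaining members had fewer reads or smaller differences. Slc7a4, a relative of unsettled substrate, had 17.8 and 41.3 in the controls against 97.5 and 145 (log2 fold change 2.09, SE 0.56, adjusted p = 0.0143). Without tamoxifen library 2 the log2 fold change of Slc7a2 was 2.12. For Slc7a4 it was 2.37 without tamoxifen library 1 and 1.80 without tamoxifen library 2. The calls were lost in these fits, which leave 1 library in the tamoxifen group and so cannot show on which library a rise rests. Under quantile normalization Slc7a4 also missed the test, at 1.05 (adjusted p = 0.144). Slc7a3, another cationic carrier, had 842 and 759.7 in the controls against 978 and 889 (log2 fold change 0.22, SE 0.18, adjusted p = 0.322, and -0.12 under quantile normalization). Slc7a14, a lysosomal relative, had 41.1 and 73.8 in the controls against 29.3 and 78.4, with overlapping groups and an estimate of -0.20 (SE 0.63, adjusted p = 0.804) that was 0.50 without tamoxifen library 1 and 0.22 without control library 2.

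Of the 3 carriers of GABA and betaine described here, 2 rose. Slc6a11, the carrier GAT3 that is known from astrocytes (chromosome 6 from 114108200 to 114226913), had normalized counts of 1735 and 2484 in the controls and of 16393 and 32038 in the tamoxifen libraries (log2 fold change 3.46, SE 0.32, limma with BH adjustment, adjusted p = 9.93e-05). Both tamoxifen libraries lay above both controls, and library 2 held close to 2 times the level of library 1. Slc6a13, the carrier GAT2 (chromosome 6 from 121277186 to 121316121), went from 54.8 and 91.4 to 289 and 564 (log2 fold change 2.50, SE 0.44, adjusted p = 0.00196), but without tamoxifen library 2 its adjusted p was 0.0956 at a log2 fold change of 2.02. Slc6a12, which carries betaine and GABA (chromosome 6 from 121320035 to 121342734), had 76.7 and 91.4 in the controls and 71.5 and 152 in the tamoxifen libraries. Its groups overlapped, and the log2 fold change of 0.31 (SE 0.48, adjusted p = 0.599) was -0.22 without tamoxifen library 2. The summed astrocyte markers came to 87371 in tamoxifen library 2 and 48279.8 in library 1, and the summed neuron markers to 20218 and 11212. The 3 GABA and betaine carriers had the same order. So had the summed markers of oligodendrocytes and their precursors, of pericytes and smooth muscle, and of choroid plexus and ependyma. The other marker lists had the reverse order. In the controls the 3 carriers were higher in library 2, whereas the summed astrocyte markers were lower there (13921 against 16385). Marker by marker the order differed from that of the sum. The median ratio of control library 2 to control library 1 over the astrocyte markers was 1.498. The part of these cell types was not tested.

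Both glycine carriers rose. Slc6a9, the carrier GlyT1 that clears glycine around synapses (chromosome 4 from 117691703 to 117732395), had normalized counts of 188 and 184 in the controls and of 1220.4 and 1924 in the tamoxifen libraries (log2 fold change 3.04, SE 0.26, limma with BH adjustment, adjusted p = 7.9e-05). Slc6a5, the carrier GlyT2 of glycine-releasing neurons (chromosome 7 from 49559894 to 49613604), had 1 read in each control library and 21 and 47 reads in the tamoxifen libraries, a ratio of 22.5-fold (95% interval 5.99 to 189) for counting error only (fitted log2 fold change 3.64, SE 0.61, adjusted p = 0.00153). Neither gene's groups overlapped, but the controls of Slc6a5 lay under the level of 3 reads.

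Taurine, creatine and proline carriers did not move together. Slc6a6, the taurine carrier (chromosome 6 from 91660573 to 91736047), had normalized counts of 135358 and 134748 in the controls and of 33432 and 18586 in the tamoxifen libraries. Control replicates differed by less than 1% and both tamoxifen libraries lay far below them (log2 fold change -2.44, SE 0.35, limma with BH adjustment, adjusted p = 0.000667). Slc6a8, the creatine carrier (chromosome X from 72716728 to 72726108), had 2841 and 3110.2 in the controls against 3955 and 3294. Both tamoxifen libraries were above both controls, but the difference of 0.28 on the log2 scale (SE 0.16, adjusted p = 0.172) did not pass the test. Slc6a7, the proline carrier of synapses, was at 0 reads in both control libraries and had 32.5 and 15.8 normalized counts in the tamoxifen libraries, which was at least 5.73-fold higher when each control library was set to 3 reads (limma adjusted p = 0.000697).

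The remaining amino acid and orphan carriers of SLC6 split by level. Slc6a17, a vesicular carrier of neutral amino acids in neurons (chromosome 3 from 107374859 to 107428439), fell from 1030.0 and 1094 normalized counts to 323 and 492 (log2 fold change -1.41, SE 0.24, limma with BH adjustment, adjusted p = 0.00179), and with libraries rescaled to the same total its value of -0.94 missed the size threshold. The other 3 tested genes of this group were near 0 in the controls and all higher in the tamoxifen libraries. Slc6a15, a carrier of branched-chain amino acids and proline in neurons (chromosome 10 from 103202915 to 103255240), rose from 1.37 and 6.26 to 174 and 263 (log2 fold change 5.70, SE 0.69, adjusted p = 0.000296). With 1 and 5 reads in the control libraries the ratio was 58.0-fold (95% interval 26.5 to 159) by counting error, and the log2 fold change ran from 4.89 without control library 1 to 6.51 without control library 2. Slc6a16, an orphan with no settled substrate (chromosome 7 from 44890499 to 44922791), had 1 read in the control libraries together and 99.7 and 108 normalized counts in the tamoxifen libraries, a ratio of 159.9-fold (95% interval 28.4 to 6343). Its fitted value of 6.12 (SE 0.65, adjusted p = 0.000176) was 5.54 without control library 1 and 6.71 without control library 2. Slc6a19, the neutral amino acid carrier of gut and kidney, was at 0 reads in both controls and at 8 and 49 reads in the tamoxifen libraries, at least 6.28-fold higher with each control at 3 reads. Its tamoxifen libraries stood well apart. Without tamoxifen library 1 its fitted log2 fold change was 5.18 in place of 4.23, and under quantile normalization it missed the test at 2.28 (adjusted p = 0.0531).

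The symbols of SLC6 also cover 3 carriers of monoamines, which are not amino acids, and these were measured with few reads. Slc6a2, the noradrenaline carrier, was at 0 reads in both controls and had 46.6 and 23.0 normalized counts in the tamoxifen libraries, at least 8.26-fold higher with each control at 3 reads (limma adjusted p = 0.000408). Slc6a4, the serotonin carrier, had 13.7 and 16.3 in the controls against 74.8 and 38.1 (log2 fold change 1.77, SE 0.58, limma with BH adjustment, adjusted p = 0.0316), and Slc6a3, the dopamine carrier, had 4.11 and 7.51 in the controls against 18.4 and 23.7 (log2 fold change 1.73, SE 0.62, adjusted p = 0.0424). The groups of all 3 genes did not overlap, but neither call of the last pair was stable. Slc6a4 missed the test without tamoxifen library 1 (adjusted p = 0.140 at 1.30) and without tamoxifen library 2 (0.0645 at 2.25), and under quantile normalization (0.235 at 0.85). Slc6a3 missed it under 8 of the 13 alternatives that gave a value, including edgeR (0.0577), DESeq2 (0.175), and leaving out control library 1 (0.137), tamoxifen library 1 (0.0866) or tamoxifen library 2 (0.116, with log2 fold changes of 1.365, 1.91 and 1.56).

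In SLC36 the abundant members fell. Slc36a1, which exports small amino acids from lysosomes together with protons (chromosome 11 from 55095146 to 55127156), went from 6754 and 6117 normalized counts to 1738 and 1567 (log2 fold change -1.96, SE 0.15, limma with BH adjustment, adjusted p = 5.4e-05). Replicates lay close together in both groups. Slc36a4, a carrier of proline and tryptophan (chromosome 9 from 15620817 to 15654830), had 2928 and 2861 in the controls against 1454 and 1367 (log2 fold change -1.04, SE 0.15, adjusted p = 0.000700). Its fall was close to the size threshold, which it missed at -0.99 without tamoxifen library 2 and at -0.57 with libraries rescaled to the same total. The third tested member moved the other way from hardly any reads. Slc36a2, a carrier of glycine, alanine and proline known from kidney and muscle (chromosome 11 from 55048922 to 55075939), had 2 reads in the controls together and 36.8 and 41.0 normalized counts in the tamoxifen libraries, a ratio of 30.1-fold (95% interval 8.09 to 252). Its fitted value of 4.41 (SE 0.75, adjusted p = 0.00165) was 3.51 without control library 1 and 5.32 without control library 2, and it missed the test without tamoxifen library 1 (0.0587 at 4.49) and without tamoxifen library 2 (0.0701 at 4.34).

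Among the members of SLC38, 2 glutamine carriers changed in opposite directions. Of the SLC38 genes that are no members of the set, Slc38a5 was called lower (log2 fold change -2.39). Slc38a4, with 4 and 0 reads in the controls, was called higher (log2 fold change 10.3). Slc38a3, which moves glutamine, histidine and asparagine with sodium and is abundant in brain endothelium and astrocytes (chromosome 9 from 107527815 to 107547018), had normalized counts of 63801 and 62958 in the controls and of 13894 and 13941 in the tamoxifen libraries. Replicates differed by less than 2% in each group, and the gene fell by 2.19 on the log2 scale (SE 0.21, limma with BH adjustment, adjusted p = 0.000122). Slc38a1, a sodium-driven importer of glutamine and alanine known from neurons (chromosome 15 from 96469298 to 96541851), rose from 277 and 390.5 to 5965 and 7346 (log2 fold change 4.33, SE 0.21, adjusted p = 9.03e-06). The groups lay far apart in both genes, and the rise of Slc38a1 was similar in both tamoxifen libraries. Slc38a2, an importer that cells raise when amino acids are scarce (chromosome 15 from 96585266 to 96597894), had 17027 and 13049 in the controls against 10467 and 9576. Its fall by 0.57 (SE 0.20, adjusted p = 0.0365) passed the adjusted p but not the size threshold, and under quantile normalization the value was 0.030.

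The other members of SLC38 are less well known. Slc38a6 (chromosome 12 from 73333535 to 73400823), an orphan of glutamate-releasing neurons, fell from 1322 and 965 normalized counts to 473 and 544 (log2 fold change -1.15, SE 0.22, limma with BH adjustment, adjusted p = 0.00287). It missed the call at -0.93 without control library 1, at -0.68 with libraries rescaled to the same total, and by adjusted p without tamoxifen library 1 (0.0825 at -1.05) or tamoxifen library 2 (0.0712 at -1.26). Slc38a9, the lysosomal carrier through which mTORC1 senses arginine (chromosome 13 from 112797159 to 112875283), had 2081 and 1646 in the controls against 1059 and 1198, a fall by 0.72 that passed the adjusted p alone (SE 0.18, adjusted p = 0.0111). Slc38a8 (chromosome 8 from 120206325 to 120228465), a carrier with a role in eye development, had 1 read in each control library and 41 and 12 reads in the tamoxifen libraries, a ratio of 17.5-fold (95% interval 4.61 to 148). The tamoxifen libraries of Slc38a8 differed more than those of any other tested carrier. The fitted value of 3.18 (adjusted p = 0.0123) was 4.30 without tamoxifen library 2 and missed the test at 1.29 under quantile normalization (adjusted p = 0.333). Slc38a7, a lysosomal exporter of glutamine and asparagine, and the orphans Slc38a10 and Slc38a11 passed neither threshold. Slc38a10 had 6576 and 7701 in the controls against 5685 and 4806 (log2 fold change -0.45, SE 0.17, adjusted p = 0.0554). As the middle gene it gave the tested members of SLC38 a median of -0.45. With libraries rescaled to the same total the value of this gene was 0.025. The groups of Slc38a7 and Slc38a11 overlapped, and both estimates, -0.13 (SE 0.18) and 0.22 (SE 0.32), changed sign without tamoxifen library 2, to 0.011 and -0.17.

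The SLC43 family carries large neutral amino acids without sodium or a heavy chain, except Slc43a3, which moves purine bases. Slc43a1 (chromosome 2 from 84669194 to 84698315) rose from 26.0 and 63.8 normalized counts to 1464 and 1006 (log2 fold change 4.86, SE 0.45, limma with BH adjustment, adjusted p = 0.000102). The control libraries of this gene differed from each other by more than 2 times, and its value was 4.23 without control library 1 and 5.49 without control library 2. Slc43a2 (chromosome 11 from 75421362 to 75477630) had 5487 and 5229 in the controls against 2953 and 3105, a fall by 0.82 (SE 0.15, adjusted p = 0.00205), and Slc43a3 (chromosome 2 from 84766862 to 84788865) had 1207 and 1368 in the controls against 2378 and 1810.2, a rise by 0.69 (SE 0.19, adjusted p = 0.0145). Both passed the adjusted p but not the size threshold, and Slc43a3 passed both with libraries rescaled to the same total (1.16).

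5 genes had too few reads to be tested. Slc3a1, the heavy chain of the kidney cystine carrier, had 17 reads in each group, and its light chain Slc7a9 had 12 in the controls and 9 in the tamoxifen libraries. The glutamate carriers Slc1a6, of cerebellar Purkinje cells, and Slc1a7, of the retina, had 1 and 2 reads in the controls and 15 and 9 in the tamoxifen libraries, and Slc6a14, a carrier of neutral and cationic amino acids in gut and lung, had 1 and 5. Given the depth of the libraries, the ratio was 0.661-fold (95% interval 0.317 to 1.38) for Slc3a1, 0.496-fold (95% interval 0.184 to 1.28) for Slc7a9, 9.91-fold (95% interval 1.53 to 417) for Slc1a6, 2.97-fold (95% interval 0.616 to 28.3) for Slc1a7 and 3.3-fold (95% interval 0.370 to 156) for Slc6a14. A difference was not detectable at this depth for 4 of them, whereas the interval of Slc1a6 lay above 1 for counting error, without regard to the spread between libraries. All these intervals are exact (Clopper-Pearson), and reads without molecular identifiers are not independent molecules.

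The order of the carriers by level per kilobase of exon also differed between the groups. In the control libraries Slc3a2 (12508 normalized counts per kilobase on average), Slc6a6 (11079.9), Slc38a3 (6860.0), Slc7a1 (6695) and Slc1a1 (2510.0) led, all of them called lower in the tamoxifen libraries. In the tamoxifen libraries Slc6a11 led at 4790.5, up from rank 11 and 417 in the controls. It was followed by Slc3a2 (3646), Slc6a6 (2134), Slc1a4 (1578) and Slc7a1 (1510.5). Slc1a1 went from rank 5 to rank 19 of 49. Genes left out of the set were not ranked. Among them Slc7a5, at 60433 in the controls and 9745 in the tamoxifen libraries, stood above every carrier ranked here in both groups. Slc1a2, at 8022 in the tamoxifen libraries, stood above every ranked carrier in that group. Exon length was taken over all annotated transcripts of a gene, so these levels depend on which transcripts the cells used.

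Many of the carriers called between the groups also differed between the tamoxifen libraries. Of the 15 carriers called higher with a tamoxifen mean of at least 100 normalized counts, 11 were higher in tamoxifen library 2 than in library 1 and 8 by at least 1.5 times, led by Slc7a10 at 2.35-fold, Slc7a2 at 2.1-fold and Slc1a4 at 2.09-fold. Slc43a1 (0.687), Slc1a5 (0.775), Slc7a7 (0.789) and Slc7a6 (0.940) had ratios below 1. Of the 10 called lower, 7 were lower in library 2, and the median ratio over the 10 was 0.911. The lowest ratios were 0.446 for Slc1a1, 0.556 for Slc6a6 and 0.664 for Slc7a1. Slc38a3 was level at 1.003, and Slc38a6 (1.15) and Slc6a17 (1.52) were higher in library 2. The same ratio had a median of 0.535 over the endothelial markers (range 0.435 to 0.611), 1.89 over the astrocyte markers (range 1.23 to 2.49), 1.69 over the neuron markers, 1.89 over the oligodendrocyte precursor markers and 3.68 over those of choroid plexus and ependyma. It was 0.733 for neutrophils, 0.753 for lymphocytes, 0.749 for pluripotency and 0.871 for the cell cycle. With 2 libraries these ratios carry no error, and what they share with the carriers was not tested. The share of all genes tested with such ratios was not computed, so the counts of carriers are a description.

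**Figure D4:**
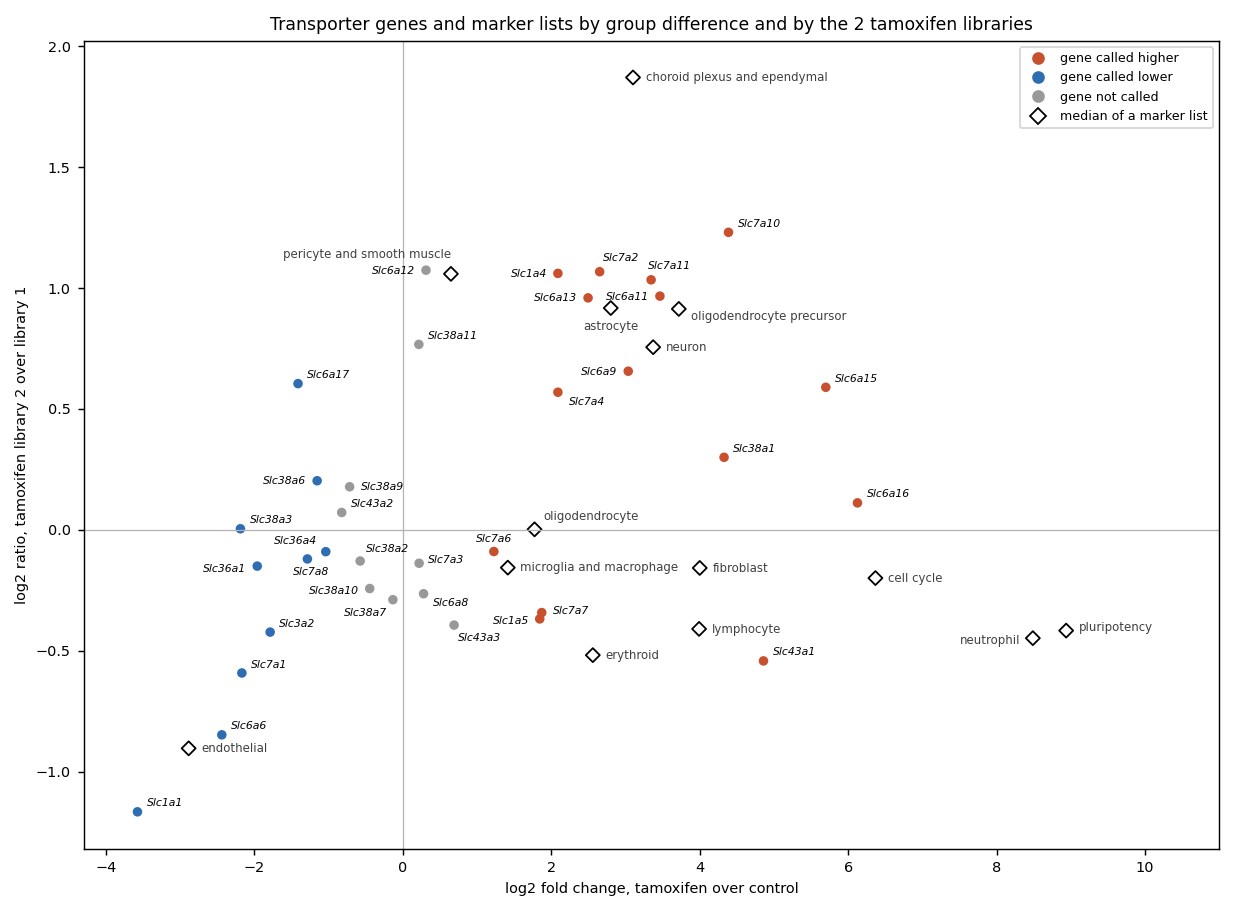
Each dot is 1 tested carrier with a tamoxifen mean of at least 100 normalized counts, placed by its log2 fold change between the groups and by the log2 ratio of tamoxifen library 2 to library 1, and diamonds are the medians of 14 marker lists. Slc7a10, Slc6a11 and Slc7a11 lie at the upper right near the astrocyte, neuron and oligodendrocyte precursor diamonds. The diamond of choroid plexus and ependyma lies above these genes, and that of pericytes and smooth muscle to their left. Slc1a1 and Slc6a6 lie at the lower left near the endothelial one. Slc43a1 and Slc1a5 lie to the right and below 0. So do the diamonds of fibroblasts, microglia and macrophages, neutrophils, lymphocytes, erythroid cells, pluripotency and the cell cycle.

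Other genes of amino acid handling differed as well, by lists that hold none of the 49 carriers. Of 26 other carriers of amino acids and peptides, 10 were called higher and 1 lower (median log2 fold change 0.35), which is 42.3% against 44.7% of all genes tested. Slc15a1, a peptide carrier of the gut, rose by 7.04 on the log2 scale and Slc32a1, which fills vesicles with GABA and glycine, by 5.01, whereas Sfxn3, of the mitochondrial serine carriers, fell by 1.20. Among 3 partner proteins Cd44, a form of which stabilizes Slc7a11 at the membrane, went from 58.9 and 51.3 to 6425 and 4571 normalized counts (log2 fold change 6.60, SE 0.24, limma with BH adjustment, adjusted p = 3.83e-06), and Arl6ip5, which restrains Slc1a1, fell by 1.27.

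The genes of amino acid sensing and response were measured beside the carriers. Of 34 genes of sensing upstream of mTORC1, 5 were called higher and 2 lower (20.6%, against 44.7% of all genes, median -0.19). Rragd and Rragb, GTPases of the sensing complex, rose by 3.66 and 3.20 on the log2 scale, and the arginine sensor Castor1 and the leucine sensor Sesn1 fell (log2 fold changes of -1.85 and -1.59). Of 20 genes of the response to amino acid shortage, 12 were called higher and 2 lower (70.0%, median 1.52). Asns, which makes asparagine, went from 868 and 889.9 to 6453 and 4614 normalized counts (log2 fold change 2.63, SE 0.19, limma with BH adjustment, adjusted p = 4.11e-05), and Phgdh, Psat1 and Cth, of serine and cysteine synthesis, rose by 3.90, 3.47 and 4.57. Atf3 and Ddit4 fell (log2 fold changes of -1.996 and -1.22), and Atf4, the factor itself, had 9191 and 8087 in the controls against 6356 and 5318 (log2 fold change -0.57, SE 0.17, adjusted p = 0.0228). Slc7a11, Slc1a4 and Slc1a5, which are known targets of that factor, were called higher, whereas Slc3a2 and Slc7a1, also known targets, were called lower and Slc38a2, another, was not called.

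Enzymes that use the carried amino acids also differed in both directions. Of 31 enzymes, 15 were called higher and 3 lower (58.1%, against 44.7% of all genes tested, median 0.77). Nos3, the endothelial nitric oxide synthase that uses arginine, went from 18397 and 18347 normalized counts to 3736 and 1724 (log2 fold change -2.86, SE 0.32, limma with BH adjustment, adjusted p = 0.000223), and Nos2, the inducible form, and Gatm, which starts creatine synthesis from arginine and glycine, fell as well (log2 fold changes of -2.61 and -2.55). These 3 were the enzymes called lower. Gldc, which cleaves glycine, and Bcat1, which takes the amino group from branched-chain amino acids, rose by 4.84 and 6.84, and Gad1, Gad2 and Abat, which make and break down GABA, by 3.55, 4.53 and 2.51. Gad1 and Gad2 are also in the list of neuron markers. Of 20 cytosolic aminoacyl-tRNA synthetases, 20% were called, below the 44.7% of all genes tested. The 4 called higher were those for alanine, aspartate, lysine and valine (1.24, 1.09, 1.09 and 1.22), none was called lower, and 11 more were higher by adjusted p alone (median 0.66).

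Some of the carriers share exons with genes on the opposite strand, and the strand setting of the counting is not given in the sources used here. The library kit marks the strand, but if counting ignored it, reads of both genes could not be told apart. The overlap covered 50.2% of the exon bases of Slc7a10 (with Lrp3), 32.6% of Slc7a4 (with P2rx6), 26.8% of Slc3a1 (with Prepl) and 23.5% of Slc6a9 (with Ccdc24). It covered 17.8% of Slc43a2 (with Gm45606), 15.9% of Slc3a2 (with Snhg1), 10.4% of Slc7a7 (with Oxa1l) and 10.4% of Slc6a15 (with Gm66970). Slc6a9 also overlapped B4galt2 (9.07%) and Gm17114 (8.41%). Other overlaps were smaller and are not listed.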

How the data were processed

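RNA of 2 control and 2 tamoxifen pools of brain cells was measured by RNA-Seq. The authors made stranded mRNA libraries, aligned reads to GRCm39 with STAR 2.7.10a, quantified them, dropped genes with few reads and used DESeq2 1.36.0 for normalization. The annotation release, strand setting and low-count limit are not given in the sources used here. The deposited table holds a signal for each gene, its normalized count, which divided by the value of 1 read gave whole reads for 100% of genes (tolerance 0.01). Columns named C were read as control and those named A as tamoxifen, a letter that the labels do not hold.

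Fits used limma 3.58.1 in R 4.3.3 (eBayes, trend option) on the log2 of the normalized count plus a pseudocount of 1, a scale that compresses changes at low counts. Genes averaging under 10 normalized counts were left out, and BH adjustment covered 20485 genes. The script was tested on simulated data. Folds for genes with few reads used the recovered reads and exact 95% intervals. Locations and exon lengths came from GENCODE M39 (GRCm39) and promoter windows from RefSeq (GRCm38.p6). As alternatives, the pseudocount was set to 0.5 or 5, the filter to 0 or 100, and libraries were brought to equal totals or quantiles. The trend was dropped, the replicate number served as a block, libraries were left out in turn, calls used the adjusted p alone, and recovered reads were fitted with edgeR 4.0.16 and with DESeq2 1.42.0. Of the genes chosen by symbol, 1 is not reported here and enters no count of carriers, though it stayed in the fit over all genes. Every other carrier is named, with values for the largest rise, the largest fall and the highest level in each role group and for others whose result needs them, and each further list gives its 2 largest rises and falls. Asns, Psat1, Atf4, Gatm, Gad1, Gad2, Abat, Dars and Kars lie outside that rule and were named after their values were seen. Carriers, gene lists and tests were chosen with earlier results of these data known. The libraries numbered 1 shared only a number (correlation of deviations 0.0251 over 20485 genes), so no pairing was assumed.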

Additional observations from a re-analysis of the deposited data

How the results depend on the processing

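The 2 libraries per group limit every estimate, and tamoxifen, the deletion and the mix of cells cannot be told apart under any alternative. Of the 33 called carriers, 20 kept the call under every alternative that gave a value, 13 lost it under at least 1, and none reversed. The 23 called higher came to 13 with a filter at a mean of 100, which tests fewer genes, and the 10 called lower came to 6 with libraries rescaled to the same total. Leaving out 1 library gave 15 to 23 called higher and 8 to 10 called lower, with 41 of the 44 carriers past the filter without tamoxifen library 1 and 42 without tamoxifen library 2. The median log2 fold change of 1.48 was 1.25 with a pseudocount of 5, 1.23 without a filter, 0.22 with a filter at 100, 1.93 with equal totals and 0.76 under quantile normalization, and ran from 0.85 to 1.46 when 1 library was left out. Of called carriers, 69.7% were higher as deposited, 80.0% with equal totals and 66.7% under quantile normalization, and of all called genes 64.1%, 80.3% and 45.6%.

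Carriers that were not called changed sign under some settings. Under quantile normalization the values were -0.71 for Slc38a11, -0.85 for Slc6a12, 0.030 for Slc38a2 and -0.12 for Slc7a3. With equal totals they were 0.27 for Slc7a14, 0.34 for Slc38a7 and 0.025 for Slc38a10. Without tamoxifen library 2 they were -0.17 for Slc38a11, -0.22 for Slc6a12 and 0.011 for Slc38a7. Over the libraries left out, Slc38a11 ran to 0.60 and Slc38a7 to -0.28, and Slc7a14 from -0.89 to 0.50. The cause was not tested.

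The numbers pair no samples. With the replicate number as a block, 22 carriers were called higher and 10 lower at the same median of 1.48, and Slc6a3 lost its call (1.73, adjusted p = 0.0524). edgeR and DESeq2 each called 22 higher and 10 lower, and over all genes 9241 and 8739 against 9151 by limma.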
